A study of Mus musculus with 20 samples.

Results

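The comparison described here is that of iBET with DMSO in BMDCs stimulated with immune complexes (IC). It took the 5 libraries labelled iBET IC and the 5 labelled DMSO IC, 10 of the 20 libraries of the series, and covered all genes with enough counts to be tested. BMDCs are dendritic-like cells grown from mouse bone marrow. Here mouse marrow was cultured for 8 days with GM-CSF at 40 ng/mL, and cells of each of 5 mice (A to E) went into every group. DMSO IC cells received DMSO, the solvent control, and ovalbumin in complex with antibody. iBET IC cells received I-BET151 at 3.3 μM (iBET) with the same complexes. Both were harvested after 4 hours of stimulation. The DMSO Ova and iBET Ova groups, which received ovalbumin alone, served only for the comparison of the iBET effect between stimuli. A solvent content of 5% is stated for the control wells alone and none for the wells with iBET. The methods have iBET diluted from a stock in DMSO, so these wells received some DMSO too, at a content not stated. An effect of the solvent therefore cannot be told apart from that of iBET. The labels also say that iBET and stimulus were given together, whereas the methods place iBET ahead of the stimulus. They likewise have the cells sorted before lysis, with no gate named, where the methods have cultures lysed directly, so whether a sort bears on the marker levels given below is not known. No strain is labelled for these mice, the methods name wild-type C57BL/6 mice beside transgenic lines and the use of both sexes, and the age of the mice cultured is not given in the sources used here.

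BET proteins, among them BRD2, BRD3 and the germline protein BRDT, bind acetylated histone tails through their bromodomains and help to recruit P-TEFb, the kinase pair of CDK9 and cyclin T that releases paused RNA polymerase II into elongation. I-BET151 occupies the acetyl-lysine pocket of the bromodomains and displaces the proteins from chromatin. In myeloid cells BET inhibitors are best known for lowering inducible inflammatory genes. Immune complexes of IgG cross-link Fcγ receptors on dendritic cells, which signal through Src-family kinases and SYK and induce cytokine and maturation genes.

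Levels are given as TMM-normalized CPM, the share of a library's counts scaled to a common total, and values by mouse are in the order A, B, C, D and E. Fold changes are on the log2 scale, iBET IC minus DMSO IC, with their standard error (SE), and p values were adjusted by the Benjamini-Hochberg method over all 12465 genes tested. A gene is called higher or lower at an adjusted p under 0.05 in edgeR's quasi-likelihood test with the mouse as a block. The 10 libraries held between 18855680 and 29245150 counts. Rn45s, the ribosomal RNA precursor, took 3.51% to 6.85% of them with DMSO IC and 3.36% to 8.61% with iBET IC, and these ranges overlapped. CPM are shares of a library, so a change of the total RNA per cell is not seen in them, and in a bulk sample fewer cells of one kind and less RNA per cell cannot be told apart.

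iBET changed the level of most genes that the BMDCs expressed, mostly by little. Of 12465 genes, 8473 (68%) were called, 4065 (32.6%) higher and 4408 (35.4%) lower. Counts of list members called below are to be read beside these shares. The larger changes were more often falls. At least 2-fold changes numbered 680 higher (5.46%) and 1247 lower (10%), at least 4-fold changes 139 and 368, and at least 8-fold changes 39 and 99. Of the called genes 4638 changed by less than 1.5-fold. The median log2 fold change was 0.47 over the genes called higher and -0.60 over those called lower. The median over all genes tested was near 0 in every mouse, from -0.02 in mouse E to 0.003 in mouse A. TMM scaling centres the bulk of genes on 0, so it largely sets this median. It also bears on the balance of higher and lower calls. In 5 of 5 mice 3761 of the genes called higher lay above DMSO and 4111 of those called lower lay below it. The ranges of the 5 iBET and the 5 DMSO libraries did not overlap for 2622 of the genes called higher (21%) and 2685 of those called lower (21.5%). Without the mouse in the fit 6990 genes were called, of which 6987 were also called with it.

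**Figure D1:**
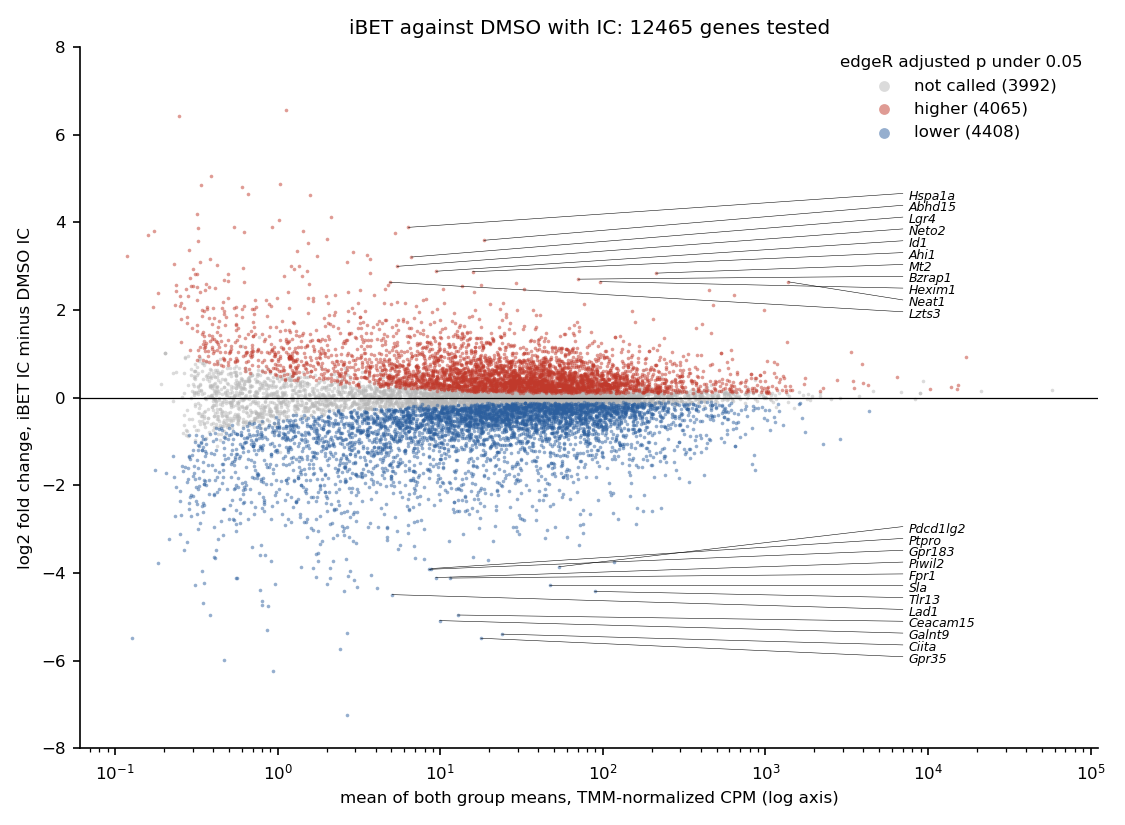
Log2 fold change of iBET IC against DMSO IC (y axis) plotted against the mean of the group means in TMM-normalized CPM (x axis, log scale) for 12465 genes. Points are genes, coloured as called higher (4065), lower (4408) or not called (3992), and the named genes are 12 falls and 11 rises, the largest described here, among called genes that averaged 100 counts or more and moved 1 way in 5 of 5 mice.

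Among genes averaging 100 counts or more the largest fall was that of Gpr35, a G protein-coupled receptor of myeloid and gut cells (chromosome 1 from 92950865 to 92986391, plus strand, GRCm38). Gpr35 was at 29.8, 26.2, 34.6, 43.5 and 39.7 CPM with DMSO IC and at 0.629, 0.757, 0.517, 1.00 and 0.890 CPM with iBET IC. Its values were high in the 5 DMSO libraries and near 1 CPM or below in the 5 iBET libraries (log2 fold change -5.49, SE 0.15, edgeR adjusted p = 1.78e-15). Ciita, the master regulator of MHC class II transcription, came next with a log2 fold change of -5.39 and is described with the class II genes. Galnt9, a glycosyltransferase that starts O-linked glycan chains, fell from 19.2 ± 3.24 to 0.575 ± 0.245 CPM (SD, n = 5 each; log2 fold change -5.09, SE 0.14, edgeR adjusted p = 1.6e-15). Ceacam15, a member of the carcinoembryonic antigen family, fell from 24.8 ± 5.72 to 0.791 ± 0.170 CPM (log2 fold change -4.96, SE 0.09, edgeR adjusted p = 8.71e-18). In both genes each iBET value lay below each DMSO value. The other falls among the largest 12 were those of Lad1 (-4.49), Tlr13 (-4.42), the adaptor gene Sla (-4.28), Fpr1 (-4.11), the piRNA pathway gene Piwil2 (-4.10), Gpr183 (-3.92), the receptor phosphatase gene Ptpro (-3.90) and Pdcd1lg2 (-3.86), with adjusted p between 1e-18 (Tlr13) and 3.5e-12 (Lad1). With DMSO IC Lad1 was at 0.901, 1.36, 14.1, 17.2 and 14.9 CPM, low in mice A and B, and its log2 fold change was -3.05 in these 2 mice alone.

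The largest rise was that of Hspa1a, which encodes the inducible chaperone HSP70 (chromosome 17 from 34969190 to 34972156, minus strand). Hspa1a was at 0.848, 0.454, 0.373, 0.749 and 1.34 CPM with DMSO IC and at 12.9, 7.88, 16.7, 17.5 and 4.95 CPM with iBET IC. Mouse E had the highest DMSO value and the lowest iBET value, yet the groups did not overlap (log2 fold change 3.89, SE 0.46, edgeR adjusted p = 5.97e-07), and without mouse E the log2 fold change was 4.50. How reads shared by Hspa1a and its near-identical neighbour Hspa1b were counted is not given in the sources used here. Abhd15, a regulator of lipolysis in fat cells, was at 2.65, 3.13, 2.10, 2.79 and 3.37 CPM with DMSO IC and at 38.7, 38.6, 32.4, 32.0 and 29.8 CPM with iBET IC. Its 5 iBET values lay far above the DMSO values (log2 fold change 3.59, SE 0.09, edgeR adjusted p = 6.61e-16). Lgr4, a receptor for R-spondins, rose from 1.29 ± 0.187 to 12.0 ± 0.863 CPM (log2 fold change 3.21, SE 0.10, edgeR adjusted p = 1e-14). Other rises among the largest were those of Neto2 (3.00), Id1, an inhibitor of helix-loop-helix factors (2.88), the ciliary gene Ahi1 (2.87), the metallothionein gene Mt2 (2.84), Bzrap1 (2.70), Hexim1 (2.65), the paraspeckle RNA Neat1 (2.64) and Lzts3 (2.64). Neat1 was at 263, 984, 256, 244 and 304 CPM with DMSO IC and at 1951, 3968, 1860.2, 1323 and 2688 CPM with iBET IC, and mouse B was highest under both treatments. In each of these 11 rising genes every iBET value lay above every DMSO value.

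**Figure D2:**
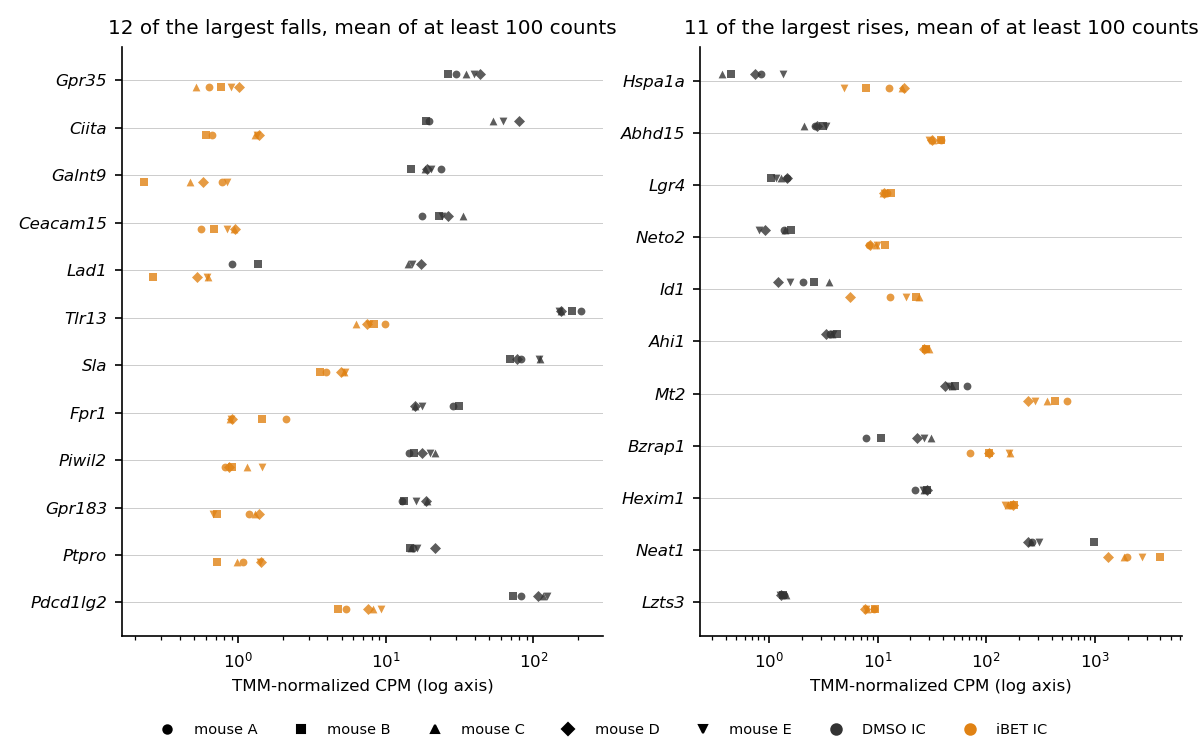
TMM-normalized CPM (x axis, log scale) of 12 of the largest falls (left) and 11 of the largest rises (right) in each library. Dark symbols are DMSO IC, orange symbols iBET IC, and the symbol shape gives the mouse, and the iBET symbols of Gpr35 lie between 0.517 and 1.00 CPM, left of its DMSO symbols at 26.2 to 43.5 CPM. Lad1 in mouse A with iBET IC was at 0 CPM and has no symbol on the log axis.

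The 250 bases before the RefSeq start of the genes with the largest falls and rises are shown so that their letters can be compared. They were read from the RefSeq promoter table (GRCm38.p6), 5′ to 3′ on the strand of the gene, and the capitals mark matches to any of 9 motifs searched on both strands. These were the TATA box (TATAAA), the CCAAT box (CCAAT), the GC box (GGGCGG), the AP-1 site (TGANTCA), the CRE (TGACGTCA), the core of the PU.1 site (GAGGAA), the E-box (CACGTG), the NF-κB site and the interferon-stimulated response element. The windows are Gpr35 at chr1:92972869-92973118 (plus), Galnt9 at chr5:110603255-110603504 (plus), Ceacam15 at chr7:16675706-16675955 (minus), Hspa1a at chr17:34972157-34972406 (minus), Abhd15 at chr11:77514867-77515116 (plus) and Lgr4 at chr2:109917397-109917646 (plus). For Gpr35 and Galnt9 the first of 2 listed starts was taken, and the window of the other was not looked at. The Gpr35 window lies inside the span of the gene given above, so its letters may not be those of the start in use. Ciita belongs to the same choice of genes.
Gpr35: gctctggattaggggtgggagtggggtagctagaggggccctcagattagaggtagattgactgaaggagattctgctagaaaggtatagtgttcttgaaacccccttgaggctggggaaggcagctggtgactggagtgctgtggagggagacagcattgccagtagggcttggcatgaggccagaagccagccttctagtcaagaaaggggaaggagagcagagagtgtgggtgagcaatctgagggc
Galnt9: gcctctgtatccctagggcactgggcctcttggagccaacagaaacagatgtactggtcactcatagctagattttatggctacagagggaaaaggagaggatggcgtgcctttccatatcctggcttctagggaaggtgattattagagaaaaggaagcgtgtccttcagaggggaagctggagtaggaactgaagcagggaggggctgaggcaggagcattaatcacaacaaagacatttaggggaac
Ceacam15: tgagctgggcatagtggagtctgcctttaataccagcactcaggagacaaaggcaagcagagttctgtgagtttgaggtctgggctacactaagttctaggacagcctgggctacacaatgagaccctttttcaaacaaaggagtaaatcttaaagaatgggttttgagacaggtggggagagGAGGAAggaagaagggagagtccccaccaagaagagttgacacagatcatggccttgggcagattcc
Hspa1a: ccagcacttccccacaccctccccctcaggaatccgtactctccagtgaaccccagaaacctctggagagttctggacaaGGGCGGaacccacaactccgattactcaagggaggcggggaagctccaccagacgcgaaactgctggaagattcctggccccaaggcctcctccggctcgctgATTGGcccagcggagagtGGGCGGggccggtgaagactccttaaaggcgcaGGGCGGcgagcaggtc
Abhd15: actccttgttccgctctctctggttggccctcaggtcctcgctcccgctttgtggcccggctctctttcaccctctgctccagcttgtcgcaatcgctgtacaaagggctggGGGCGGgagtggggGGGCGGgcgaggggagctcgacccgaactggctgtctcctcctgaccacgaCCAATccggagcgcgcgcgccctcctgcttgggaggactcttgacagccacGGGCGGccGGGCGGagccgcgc
Lgr4: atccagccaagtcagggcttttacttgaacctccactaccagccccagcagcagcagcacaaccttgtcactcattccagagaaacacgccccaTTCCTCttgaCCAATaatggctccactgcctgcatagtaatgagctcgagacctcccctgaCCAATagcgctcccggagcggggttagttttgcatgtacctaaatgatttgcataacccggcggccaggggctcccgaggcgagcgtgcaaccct

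The windows of the falling genes held few CpG dinucleotides, 0 in Gpr35, 2 in Galnt9 and 0 in Ceacam15. Those of the rising genes held 14 (Hspa1a), 23 (Abhd15) and 10 (Lgr4), where the median over 32851 RefSeq windows of this length was 6. The GC box GGGCGG occurred 3 times in Hspa1a and 4 times in Abhd15 and stood in 32.7% of all windows. CCAAT occurred in Hspa1a, Abhd15 and Lgr4 (33.8% of all windows), and GAGGAA, the core of the PU.1 site, once in Ceacam15 and once in Lgr4 (23.3% of all windows). None of the other motifs was found in these 6 windows. The TATA box stood in 12.4% of all windows, the NF-κB site in 1.41%, the AP-1 site in 6.75%, the CRE in 1.55%, the interferon element in 2.98% and the E-box in 6.02%. A match is a match of letters only, and 6 windows chosen for their change carry no test.

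Genes of the BET proteins and of the elongation machinery they recruit mostly rose. Of 20 tested members of this list 14 were called higher, 3 lower and 3 neither, and the median log2 fold change was 0.43 against -0.004 over all genes tested. Hexim1, which holds P-TEFb inactive in a particle with a small nuclear RNA, was at 22.2, 28.6, 26.7, 28.7 and 26.1 CPM with DMSO IC and at 166, 179.7, 158, 176 and 150.1 CPM with iBET IC. All 5 iBET values were several times the highest DMSO value (log2 fold change 2.65, SE 0.07, edgeR adjusted p = 8.71e-16). Brd2 was at 201, 199, 215, 205 and 223 CPM with DMSO IC and at 1044, 1169, 1112, 956 and 1043 CPM with iBET IC. The groups were far apart beside the spread between mice, and the level was 5.10-fold higher with iBET (log2 fold change 2.35, SE 0.07, edgeR adjusted p = 2.54e-15). Brd3 changed less, and was at 26.1 ± 2.19 and 31.4 ± 2.24 CPM (log2 fold change 0.27, SE 0.05, edgeR adjusted p = 0.000151). Brdt, a germline gene, was at 0.265 to 0.499 CPM with DMSO IC and at 0.668 to 1.11 CPM with iBET IC (1.45, edgeR adjusted p = 2.65e-05).

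Of the P-TEFb subunits, Cdk9 rose from 50.6 ± 4.97 to 68.4 ± 3.60 CPM (0.44, edgeR adjusted p = 8e-05), and the cyclin genes Ccnt1 (0.52) and Ccnt2 (0.81) were called higher too. Mepce, which caps the small RNA of the inhibitory particle, rose by 0.85, whereas Larp7, which holds that RNA, was not called (0.03). The members called lower were Hexim2, a paralog of Hexim1 at 2.22 ± 0.493 and 0.550 ± 0.145 CPM (-2.0, edgeR adjusted p = 2.66e-09), Nelfe, a subunit of the pausing factor NELF (-0.41), and Aff1, a scaffold of the super elongation complex (-0.20, edgeR adjusted p = 0.0242, and 0.146 without the mouse in the fit). Hexim1 and Hexim2 thus moved in opposite directions, in 5 of 5 mice each. Ell, an elongation factor, was not called either (0.13).

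Histone genes rose as a group. Of 75 tested 57 were called higher and 1 lower, against 32.6% and 35.4% of all genes, and the median was 0.52, with medians of single mice of 0.45 to 0.52. H3f3b, a gene of the replacement histone H3.3, was at 342, 370.1, 441, 400.2 and 396 CPM with DMSO IC and at 1396, 1617, 1729, 1548 and 1536 CPM with iBET IC. Every iBET value was far above every DMSO value (log2 fold change 2.01, SE 0.06, edgeR adjusted p = 5.58e-15). H1f0, a linker histone of resting cells, rose from 73.8 ± 14.5 to 240.4 ± 21.4 CPM (log2 fold change 1.72, SE 0.06, edgeR adjusted p = 3.47e-14), and Hist1h2bc from 193 ± 19.0 to 619.7 ± 27.6 CPM (log2 fold change 1.69, SE 0.07, edgeR adjusted p = 2.47e-13). The most abundant members not called were Hist1h1e (0.06) and Hist1h3b (0.26). The member called lower was H2afy, which encodes macroH2A (-0.10, edgeR adjusted p = 0.0404, and 0.369 without the mouse in the fit, where 43 members were called higher and 0 lower). Libraries were made from total RNA, so histone transcripts without a poly(A) tail could enter them, and copies of near-identical sequence share reads in an unknown way.

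Receptors for chemoattractants fell. All 18 tested members were called lower, 16 of them with no overlap between the groups and 16 also without the mouse in the fit, and the median was -2.26. Fpr1, the receptor for formylated bacterial peptides, was at 28.4, 31.5, 15.8, 15.7 and 17.7 CPM with DMSO IC and at 2.11, 1.44, 0.880, 0.906 and 0.890 CPM with iBET IC. Mice A and B had the higher values under both treatments, and the groups stood far apart (log2 fold change -4.11, SE 0.17, edgeR adjusted p = 1.88e-13). Gpr183, the oxysterol receptor that places dendritic cells in lymphoid tissue, fell from 16.0 ± 2.88 to 1.05 ± 0.333 CPM (log2 fold change -3.92, SE 0.14, edgeR adjusted p = 3.28e-14). Ch25h, the hydroxylase that makes the precursor of its ligand, fell as well, from 7.00 ± 1.62 to 0.454 ± 0.243 CPM (log2 fold change -4.05, SE 0.31, edgeR adjusted p = 1.79e-09). Ccr2, the receptor for monocyte chemoattractant ligands, was at 145 to 364 CPM with DMSO IC and at 11.5 to 18.5 CPM with iBET IC (log2 fold change -3.76, SE 0.17, edgeR adjusted p = 1.08e-12). The smallest fall in the list was that of C5ar1, the complement C5a receptor (-0.41, edgeR adjusted p = 0.0115, and 0.3 without the mouse in the fit).

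Toll-like receptors and their adaptors were mostly lower. Of 23 tested members 19 were called lower and 0 higher, and the median was -1.95. Tlr13, an endosomal receptor for bacterial ribosomal RNA, was at 211, 182, 154, 154 and 149 CPM with DMSO IC and at 9.81, 8.29, 6.31, 7.49 and 7.73 CPM with iBET IC. Every DMSO value was far above every iBET value (log2 fold change -4.42, SE 0.07, edgeR adjusted p = 1e-18). Cd180, a relative of TLR4, fell from 14.7 ± 1.48 to 1.14 ± 0.281 CPM (log2 fold change -3.68, SE 0.18, edgeR adjusted p = 2.52e-12) and Tlr7, which senses single-stranded RNA, from 80.1 ± 24.3 to 10.0 ± 2.60 CPM (log2 fold change -3.01, SE 0.11, edgeR adjusted p = 4e-14). The members not called were Unc93b1, which carries the nucleic acid receptors to endosomes (0.05), the kinase genes Irak2 (-0.10) and Irak4 (0.01), and the adaptor gene Ticam1 (0.10). Unc93b1 stood at 543 ± 48.7 and 562 ± 55.5 CPM.

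In the pathway by which immune complexes signal, 19 of 26 members were called lower and 1 higher, with a median of -0.90. Among the receptors, Fcgr1, the high-affinity receptor, was at 52.1, 59.8, 47.1, 38.9 and 34.6 CPM with DMSO IC and at 14.5, 15.5, 13.0, 12.4 and 8.73 CPM with iBET IC. The groups did not overlap (log2 fold change -1.85, SE 0.07, edgeR adjusted p = 8.54e-14). Fcgr2b, the inhibitory receptor, and Fcgr3, a low-affinity activating receptor similar to it in sequence, changed by -1.26 and -1.10 (SE 0.0777 and 0.0690). Fcgr4 was at 0.838 ± 0.449 and 0.448 ± 0.168 CPM (log2 fold change -0.89, SE 0.29, edgeR adjusted p = 0.0121), and it was not called without the mouse in the fit (adjusted p = 0.113) or without mouse B (-0.51, edgeR adjusted p = 0.15). Fcer1g, the signalling chain of the activating receptors, was not called (log2 fold change 0.10, SE 0.05, edgeR adjusted p = 0.0676), but it was without mouse E (0.14, edgeR adjusted p = 0.023).

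Below the receptors the Src-family kinases diverged. Fgr was at 95.5, 97.0, 80.5, 83.2 and 92.9 CPM with DMSO IC and at 13.2, 11.4, 11.1, 11.1 and 11.1 CPM with iBET IC. The groups were far apart (log2 fold change -2.95, SE 0.08, edgeR adjusted p = 8.71e-16). Lyn, the family member that also drives inhibitory signals, was at 167 ± 13.8 and 167 ± 3.18 CPM and was not called (log2 fold change 0.01, SE 0.05, edgeR adjusted p = 0.901). Blnk and Lat2, adaptors that link the kinases to phospholipase C, changed by -1.95 and -1.94 (SE 0.0641 and 0.0594). The member called higher was Plcg2, the phospholipase itself, at 183 ± 12.8 and 203 ± 3.65 CPM (0.15, edgeR adjusted p = 0.00961), a call that was lost without mouse C.

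Cytokine genes divided. Of 19 tested 14 were called lower and 2 higher, with a median of -1.15. Il6 was at 5.83, 9.71, 6.25, 4.25 and 5.97 CPM with DMSO IC and at 1.04, 0.985, 0.724, 0.572 and 0.723 CPM with iBET IC. It was low in every iBET library, at about 1 CPM or less (log2 fold change -2.96, SE 0.14, edgeR adjusted p = 1.73e-12). Tnf, by contrast, was at 34.9, 40.1, 35.4, 18.2 and 30.9 CPM with DMSO IC and at 35.0, 32.4, 47.5, 18.6 and 26.4 CPM with iBET IC. Its ranges overlapped widely and it was higher in 3 of 5 mice (log2 fold change -0.02, SE 0.16, edgeR adjusted p = 0.919). Inhba, which encodes activin A, fell from 93.1 ± 31.5 to 20.4 ± 7.51 CPM (log2 fold change -2.20, SE 0.16, edgeR adjusted p = 6.43e-10), Il12b, the shared subunit of IL-12 and IL-23, from 15.2 ± 6.50 to 3.86 ± 1.40 CPM (log2 fold change -1.93, SE 0.13, edgeR adjusted p = 2.18e-10), and Il1rn, the antagonist of the IL-1 receptor, from 297 ± 44.2 to 102 ± 13.1 CPM (log2 fold change -1.53, SE 0.09, edgeR adjusted p = 6.65e-11). Il1b fell less, from 27.4 ± 14.8 to 16.6 ± 4.67 CPM, with overlapping ranges (log2 fold change -0.67, SE 0.21, edgeR adjusted p = 0.00921), and was not called without mouse B (edgeR adjusted p = 0.0521) or mouse E (0.0608). The 2 members called higher were Tgfb1 (log2 fold change 0.75, SE 0.11, edgeR adjusted p = 1.1e-05), a suppressive cytokine, and Osm (log2 fold change 0.60, SE 0.11, edgeR adjusted p = 8.37e-05), a relative of IL-6. Il10 had too few counts to be tested.

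Of 18 chemokine ligand genes 11 were called lower and 1 higher, with a median of -0.60, and without the mouse in the fit 7 and 0. Cxcl3, which draws neutrophils, fell from 134 ± 41.6 to 16.1 ± 5.42 CPM (log2 fold change -3.10, SE 0.23, edgeR adjusted p = 8.01e-10) and Ccl4 from 14.0 ± 4.28 to 2.83 ± 0.775 CPM (log2 fold change -2.31, SE 0.18, edgeR adjusted p = 1.46e-09). The ligand present at the highest level, Ccl6, was at 8298 ± 1878 and 8275 ± 2325 CPM and was not called (-0.02). The member called higher was Ccl2 (0.43, edgeR adjusted p = 0.0413, and 0.407 without the mouse in the fit).

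In the NF-κB system 17 of 22 members were called lower and 3 higher, with a median of -0.52. The falls were largest for Bcl3, a nuclear IκB protein (log2 fold change -2.66, SE 0.11, edgeR adjusted p = 3.93e-13), the adaptor gene Traf1 (log2 fold change -2.32, SE 0.08, edgeR adjusted p = 1.37e-14) and Tnip3, a partner of the inhibitor A20 (log2 fold change -2.23, SE 0.08, edgeR adjusted p = 5.68e-14). The members called higher were Nfkbiz, another nuclear IκB protein, which went from 15.0 ± 3.46 to 29.96 ± 6.93 CPM (log2 fold change 1.00, SE 0.06, edgeR adjusted p = 8.87e-11), Nfkbia, the inhibitor IκBα (0.42, edgeR adjusted p = 0.00251, and 0.0745 without the mouse in the fit), and the kinase gene Chuk (0.20, edgeR adjusted p = 0.0113). Rel and Nfkb2, a pair of subunit genes, were not called (-0.03 and -0.11).

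Immediate early genes, which signalling switches on without new protein, went both ways, with 16 of 29 called higher and 8 lower and a median of 0.37. Ier3, a stress-induced survival gene, was at 56.5, 65.4, 72.8, 46.5 and 64.2 CPM with DMSO IC and at 236, 275, 286, 196 and 217 CPM with iBET IC. All iBET values exceeded all DMSO values (log2 fold change 1.99, SE 0.09, edgeR adjusted p = 6.56e-13). Ier2 rose from 30.5 ± 1.53 to 93.0 ± 16.7 CPM (1.59, edgeR adjusted p = 4.1e-11), and Phlda1 by 1.57. Atf3 fell from 125 ± 25.8 to 47.1 ± 7.15 CPM (-1.40, edgeR adjusted p = 9.22e-11), Egr2 changed by -1.26 and Klf6 changed by -0.84. Junb and Dusp1, the most abundant members not called, had log2 fold changes of 0.15 and 0.15. Myc was at 12.8 ± 4.52 and 15.8 ± 7.75 CPM and was not called (0.25, edgeR adjusted p = 0.086). Of 28 interferon-stimulated genes 20 were called lower, led among those with enough counts to be named by Usp18 (log2 fold change -2.21, SE 0.11, edgeR adjusted p = 4.22e-12), Rsad2 (-1.98) and Mx1 (-1.73). The 3 called higher, Stat2 (0.52), Ifi35 (0.28) and Herc6 (0.24), were not called without the mouse in the fit.

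Ciita and the class II genes it controls did not move together. Ciita (chromosome 16 from 10480059 to 10528418, plus strand) was at 19.5, 18.7, 53.5, 79.6 and 61.9 CPM with DMSO IC and at 0.666, 0.606, 1.29, 1.38 and 1.33 CPM with iBET IC. Mice A and B were lowest under both treatments, and every iBET value lay far below every DMSO value (log2 fold change -5.39, SE 0.14, edgeR adjusted p = 8.71e-16). Cd74, the invariant chain that guides class II molecules and a target of CIITA, was at 2235, 2277, 3438, 4464 and 3806 CPM with DMSO IC and at 2681, 2554, 4368, 5368 and 4075 CPM with iBET IC. It was slightly higher in 5 of 5 mice with wide overlap between the groups (log2 fold change 0.23, SE 0.05, edgeR adjusted p = 0.000824), and it was not called without the mouse in the fit (edgeR adjusted p = 0.468). H2-Ab1, a chain of the class II molecule I-A, was at 377 ± 122 and 366 ± 105 CPM (log2 fold change -0.03, SE 0.06, edgeR adjusted p = 0.663), and Ctss, the protease that trims the invariant chain, at 2878 ± 630.0 and 2898 ± 878 CPM (log2 fold change -0.01, SE 0.06, edgeR adjusted p = 0.84). Over the list 8 of 15 genes were called lower and 2 higher, with a median of -0.17. Rfx5, a DNA-binding partner of CIITA, changed by -1.28 (SE 0.0957), and its partner Rfxap rose by 0.57 (SE 0.10). H2-DMb1, a peptide-loading chain, changed by -0.71. Without the mouse in the fit 4 members were called lower and 1 higher.

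Genes of ligands and receptors by which dendritic cells stimulate or restrain T cells were called lower, all 15 of them, with a median of -1.24. In 9 of them the groups did not overlap, and 13 were called lower without the mouse in the fit. Pdcd1lg2 (PD-L2, an inhibitory ligand) was at 82.8, 72.2, 116, 107 and 123 CPM with DMSO IC and at 5.33, 4.73, 8.18, 7.58 and 9.23 CPM with iBET IC. The groups were far apart (log2 fold change -3.86, SE 0.09, edgeR adjusted p = 2.23e-16). Tnfsf4 (OX40 ligand, a stimulatory one) fell from 30.6 ± 14.0 to 4.51 ± 1.86 CPM (log2 fold change -2.74, SE 0.10, edgeR adjusted p = 3.85e-14), and Cd80 changed by -2.26. The 14 markers of mature migratory dendritic cells were all called lower, with a median of -0.79, but 6 were without the mouse in the fit. Fscn1, which bundles actin in their dendrites, was at 85.7, 97.6, 342, 294 and 369 CPM with DMSO IC and at 11.7, 16.7, 90.5, 72.0 and 95.7 CPM with iBET IC. It was lower in each mouse, while the DMSO value of mouse A lay inside the range of the iBET values of mice C, D and E (log2 fold change -2.25, SE 0.16, edgeR adjusted p = 3.97e-10).

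**Figure D3:**
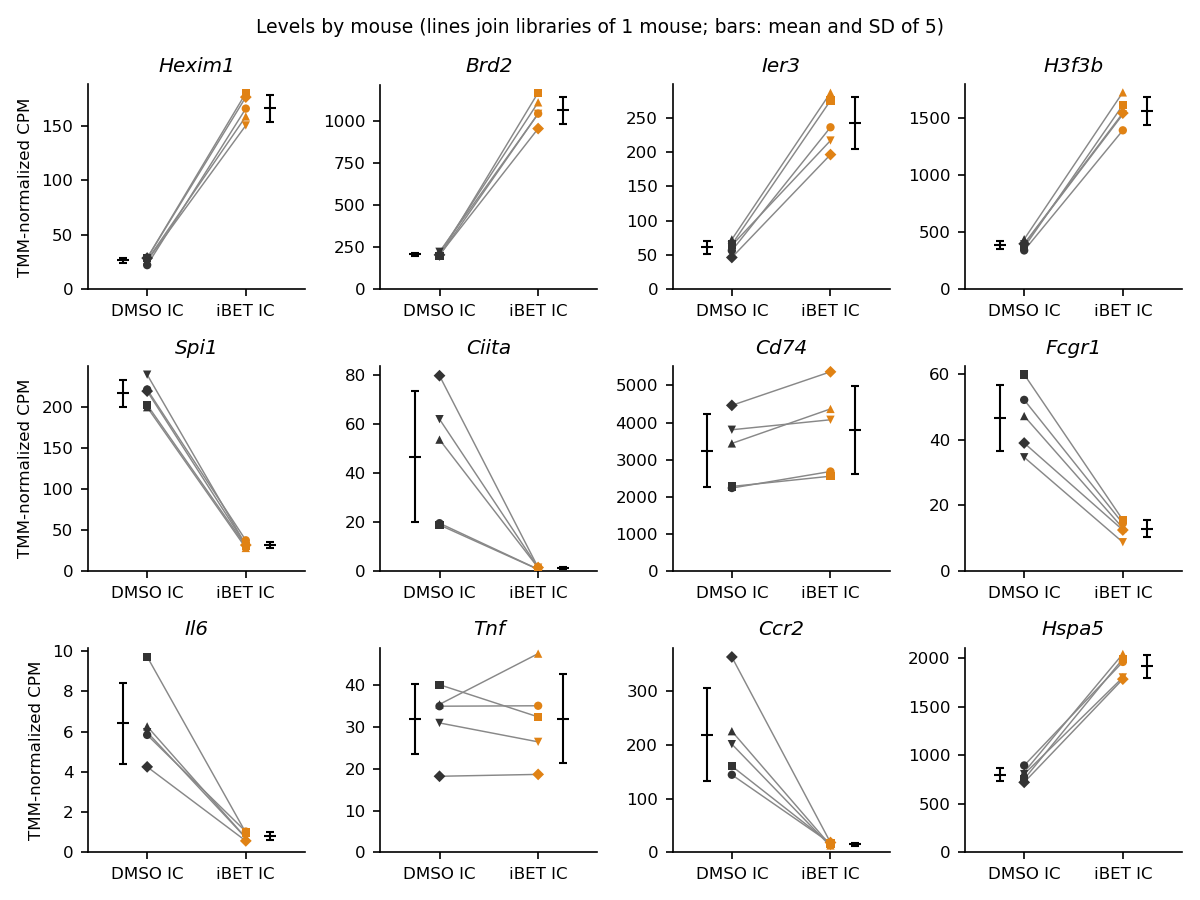
TMM-normalized CPM (y axis, from 0) of 12 genes in the DMSO IC and iBET IC libraries. Symbols are mice A to E, grey lines join the libraries of 1 mouse, and the bars give the mean and SD of the 5 libraries of a group. Hexim1, Brd2, H3f3b and Hspa5 rise in each mouse, Spi1, Ciita, Fcgr1, Il6 and Ccr2 fall in each mouse, Ier3 and Cd74 rise in each mouse, and Tnf goes both ways.

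Transcription factors of the myeloid lineage were mostly lower, with 17 of 24 called lower and 6 higher and a median of -0.71. Spi1 (chromosome 2 from 91082390 to 91115756, plus strand) encodes PU.1, on which dendritic cells and macrophages depend. Spi1 was at 221, 202, 199, 219 and 239 CPM with DMSO IC and at 37.3, 30.3, 27.9, 31.5 and 31.5 CPM with iBET IC. The spread between mice was small beside the fall (log2 fold change -2.77, SE 0.06, edgeR adjusted p = 2.23e-16). Batf3, a factor of conventional dendritic cells, fell from 15.9 ± 6.85 to 3.82 ± 1.31 CPM (log2 fold change -2.02, SE 0.10, edgeR adjusted p = 2.6e-12) and Runx1, a hematopoietic factor, from 136 ± 17.3 to 49.2 ± 6.04 CPM (log2 fold change -1.47, SE 0.09, edgeR adjusted p = 7.7e-11). Cebpd (1.02) and Nfil3 (0.53) rose, and Cebpa was not called (-0.12, edgeR adjusted p = 0.268). Also called higher were Mef2c (1.34), Maf (0.90) and Ets2 (0.50).

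The markers of dendritic cells and macrophages were present in every library. As CPM of all counts, without TMM, the 10 dendritic cell markers summed to 7892 to 10612 CPM with DMSO IC and to 9638 to 13160 CPM with iBET IC, and the 12 macrophage markers to 12746 to 16992 and 12070 to 19315 CPM. These sums are set by a few abundant genes, and by count more markers were lower than higher. Of 9 dendritic cell markers tested 5 were called lower and 3 higher (median log2 fold change -0.17), of 12 macrophage markers 6 lower and 2 higher (-0.26), and of 7 monocyte markers 4 lower and 1 higher (-0.25). Without the mouse in the fit 3, 4 and 2 were called lower and 1, 1 and 0 higher. The dendritic cell markers called lower were Ciita (-5.39), Flt3 (-2.83), Clec10a (-0.32), Zbtb46 (-0.25) and H2-Aa (-0.17), of which the last 2 were not called without the mouse in the fit. Among the macrophage markers Fcgr1 (-1.85) and Csf1r (-0.68), and among the monocyte markers Ccr2 (-3.76), fell most. Csf2rb, the common chain of the GM-CSF receptor, rose from 2901 ± 347 to 4924 ± 450.0 CPM (log2 fold change 0.76, SE 0.07, edgeR adjusted p = 3.11e-08), and Adgre1, which encodes F4/80, was at 160.4 ± 11.8 and 159.7 ± 15.4 CPM (-0.01). Of the markers of other lineages, the 13 neutrophil markers listed summed to 516 to 846 CPM with DMSO IC and 482 to 901 CPM with iBET IC, and of 10 tested 1 was called higher and 2 lower. The 9 T and NK cell markers summed to 0.264 to 0.786 CPM with DMSO IC and 0.0498 to 0.274 CPM with iBET IC. Pax5 of B cells, Siglech of plasmacytoid dendritic cells and Elane of neutrophils had at most 3 counts in any library of the comparison. Other members of these lists had counts. The B cell markers summed to 7.08 to 12.6 CPM with DMSO IC and 3.02 to 6.74 CPM with iBET IC. Those of plasmacytoid dendritic cells summed to 71.35 to 83.1 and 53.1 to 75.9 CPM. Mast cell and basophil markers summed to 25 to 45.9 CPM with DMSO IC and 12.7 to 40.3 CPM with iBET IC, and eosinophil markers to 58.1 to 163 and 47.1 to 114 CPM. The part of such cells in the results was not tested.

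Of 16 genes of the inflammasome, the platform that matures IL-1β, 10 were called lower and 3 higher, with a median of -0.68. Nlrp3, a sensor of membrane damage and ion flux, was at 60.6, 64.6, 53.7, 39.7 and 47.1 CPM with DMSO IC and at 7.10, 8.14, 7.76, 4.15 and 4.95 CPM with iBET IC. The groups were far apart (log2 fold change -3.05, SE 0.09, edgeR adjusted p = 4e-15). Nlrc4, which acts with the NAIP sensors of bacterial flagellin and secretion systems, changed by -1.38 (SE 0.0831). Pycard, the adaptor ASC, went from 128 ± 6.18 to 50.3 ± 1.28 CPM (log2 fold change -1.35, SE 0.05, edgeR adjusted p = 8.85e-14). Nek7 and Aim2 were not called (-0.01 and 0.01). The members called higher were Naip5 (0.56, edgeR adjusted p = 2.58e-07), Naip6 (0.29) and Naip2 (0.11), near-identical neighbours whose reads may be shared, of which Naip5 alone was called without the mouse in the fit. The NADPH oxidase was affected in its cytosolic subunits, where 4 of 6 tested genes of the list were called lower, among them Ncf1 (log2 fold change -1.25, SE 0.06, edgeR adjusted p = 1.62e-12), Ncf4 (-0.89) and Rac2 (-0.22, edgeR adjusted p = 0.000885, and not called without the mouse in the fit). The membrane subunits Cybb and Cyba were not called, at 0.05 and 0.03.

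Chaperones rose. Of 21 heat shock chaperone genes 14 were called higher and 1 lower, with a median of 0.24. Besides Hspa1a these included Hsp90aa1, the inducible HSP90, which went from 256 ± 15.2 to 506 ± 45.9 CPM (log2 fold change 0.98, SE 0.09, edgeR adjusted p = 8.65e-09), and Hspa1b, which went from 3.20 ± 2.73 to 17.4 ± 2.64 CPM (log2 fold change 2.48, SE 0.27, edgeR adjusted p = 1.72e-07). With DMSO IC Hspa1b was at 1.64, 1.82, 2.57, 1.92 and 8.04 CPM, highest in mouse E, and without mouse E the log2 fold change was 3.19. The member called lower was Chordc1 (-0.32). In the endoplasmic reticulum 16 of 22 folding genes were called higher and 3 lower, with a median of 0.30. Hspa5, the chaperone BiP, was at 895, 755, 826, 721 and 805 CPM with DMSO IC and at 1959.6, 1991, 2042, 1782 and 1800.2 CPM with iBET IC. The groups did not overlap (log2 fold change 1.26, SE 0.07, edgeR adjusted p = 1.08e-11). Calr rose from 818 ± 31.9 to 1439.5 ± 129.8 CPM (0.81, edgeR adjusted p = 2.17e-07), and Ern1, the sensor IRE1, by 0.85. The 3 members called lower were Edem1 (-0.23), Dnajb11 (-0.23) and Herpud1 (-0.21), and Xbp1, the factor that IRE1 activates, was not called (-0.14, edgeR adjusted p = 0.0541).

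The targets of ATF4, the factor of the integrated stress response, did not rise as a group. Of 22 tested 6 (27.3%) were called higher and 5 (22.7%) lower, with a median of 0.02. Chac1, which degrades glutathione, rose from 11.0 ± 1.62 to 34.7 ± 12.9 CPM (log2 fold change 1.61, SE 0.17, edgeR adjusted p = 1.48e-07) and Ddit3, which encodes CHOP, from 38.9 ± 5.22 to 78.3 ± 16.8 CPM (log2 fold change 1.00, SE 0.11, edgeR adjusted p = 1.97e-07). Slc7a11, the cystine carrier that supplies glutathione synthesis and a target of both ATF4 and NRF2, fell from 1310.0 ± 223 to 415 ± 65.9 CPM (log2 fold change -1.65, SE 0.14, edgeR adjusted p = 5.54e-09). Atf4 itself was not called (0.09). Of 22 NRF2 target genes 8 (36.4%) were called higher and 9 (40.9%) lower, near the 32.6% and 35.4% of all genes tested. The subunits of glutamate-cysteine ligase moved apart, the catalytic Gclc rising by 1.29 and the modifier Gclm changing by -0.74 (edgeR adjusted p = 1.67e-13 and 7.37e-07). The ferritin light chain gene Ftl1 was at 14774, 12576, 10790.0, 9916 and 11110.0 CPM with DMSO IC and at 27923, 24801, 20083, 20674 and 18944 CPM with iBET IC. It rose in each mouse without overlap of the groups (log2 fold change 0.93, SE 0.07, edgeR adjusted p = 2.68e-09), while the heavy chain gene Fth1 was not called (0.13, edgeR adjusted p = 0.176).

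Lists of metabolic genes stand here beside the 32.6% of all genes called higher and the 35.4% called lower. Of 15 genes of activated macrophage metabolism 9 (60%) were called lower and 3 (20%) higher. Irg1, the enzyme that makes itaconate, fell from 189.8 ± 45.4 to 42.0 ± 11.8 CPM (log2 fold change -2.18, SE 0.17, edgeR adjusted p = 1.35e-09), Arg1, the arginase, from 460.2 ± 131 to 128 ± 32.2 CPM (log2 fold change -1.84, SE 0.12, edgeR adjusted p = 1.39e-10), and Odc1, the first enzyme of polyamine synthesis, rose from 102 ± 10.3 to 231 ± 24.7 CPM (log2 fold change 1.17, SE 0.07, edgeR adjusted p = 2.62e-11). Hmox1 was not called (0.13, edgeR adjusted p = 0.395). The other 2 members called higher were Gch1 (0.46) and Arg2 (0.45). Cholesterol synthesis genes had 11 of 25 (44%) called higher and 7 (28%) lower, with a median of 0.07. Acat2, the thiolase that condenses acetyl-CoA at the head of the pathway, was at 20.0, 15.2, 18.3, 15.9 and 18.8 CPM with DMSO IC and at 67.8, 64.5, 63.4, 64.7 and 61.9 CPM with iBET IC. The groups were well apart (log2 fold change 1.88, SE 0.09, edgeR adjusted p = 1.99e-12). Sqle rose by 1.04 and Hsd17b7 by 1.11, Fdps and Fdft1 changed by -0.47 and -0.47, and the regulator genes Srebf1 and Srebf2 were not called (-0.07 and 0.11). Among 17 genes of sterol efflux and fatty acid handling 10 (58.8%) were called lower and 4 (23.5%) higher. Fabp4, a fatty acid carrier, changed by -2.58, Pparg, a nuclear receptor that drives it, changed by -1.57, and the lipid droplet coat gene Plin2 changed by -1.30 (edgeR adjusted p = 2.12e-10, 1.78e-11 and 6.16e-11). The 4 members called higher were Acaca (0.52), Fasn (0.46), Mylip (0.40) and Nr1h2 (0.25). In glycolysis 8 of 20 genes (40%) were called higher and 5 (25%) lower. Pfkl, the liver-type phosphofructokinase, rose by 0.94 and Slc16a3, the lactate exporter, changed by -0.76.

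Genes of the cell cycle were mostly lower, with 21 of 32 called lower, 4 higher and a median of -0.33. E2f2 fell from 28.6 ± 5.62 to 6.62 ± 0.589 CPM (log2 fold change -2.09, SE 0.08, edgeR adjusted p = 1.92e-13), Bub1b, a mitotic checkpoint kinase, changed by -1.14 and Cdc20 changed by -1.07. The 4 called higher were Ccnd3 (0.79), Pcna (0.32), Rrm2 (0.31) and Mcm7 (0.21). Of 29 genes of ribosome biogenesis and MYC 10 were called higher and 10 lower, 34.5% each way, which is near the 32.6% and 35.4% of all genes tested. Ncl, the nucleolin gene, rose from 168 ± 34.3 to 308 ± 32.4 CPM (log2 fold change 0.89, SE 0.08, edgeR adjusted p = 1.12e-08) and Nop56 by 0.85, and Utp20 changed by -0.76. Of 82 cytosolic ribosomal protein genes 42 were called higher and 1 lower, with a small median of 0.13. Without the mouse in the fit 23 were called higher, and in mice C, D and E alone 21. Rps2 had the largest rise among them (log2 fold change 0.47, SE 0.06, edgeR adjusted p = 2.24e-06).

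The BCL2 family, which sets the threshold of apoptosis, had 12 of 15 members called lower and 1 higher, with a median of -0.69. Bcl2l11, which encodes the killer protein BIM, was at 36.8, 38.2, 38.6, 55.8 and 47.2 CPM with DMSO IC and at 72.6, 82.0, 107, 103 and 109 CPM with iBET IC. It rose in each mouse (log2 fold change 1.13, SE 0.11, edgeR adjusted p = 5.88e-08). The falling members were of both kinds. Among the protective genes were Bcl2a1d (-1.52, edgeR adjusted p = 3.91e-12), Bcl2a1a (-1.38, edgeR adjusted p = 1.69e-11) and Bcl2a1b (-1.37), copies of one another whose reads may be shared. The other protective ones were Bcl2l1 (-1.05), Bcl2l2 (-0.83), Bcl2 (-0.48) and Mcl1 (-0.26). The killer genes called lower were Bmf (-1.65, edgeR adjusted p = 1.84e-11), Bak1 (-0.93), Pmaip1 (-0.69), Bbc3 (-0.49) and Bax (-0.21). Bad and Bid were not called (0.02 and 0.09).

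**Figure D4:**
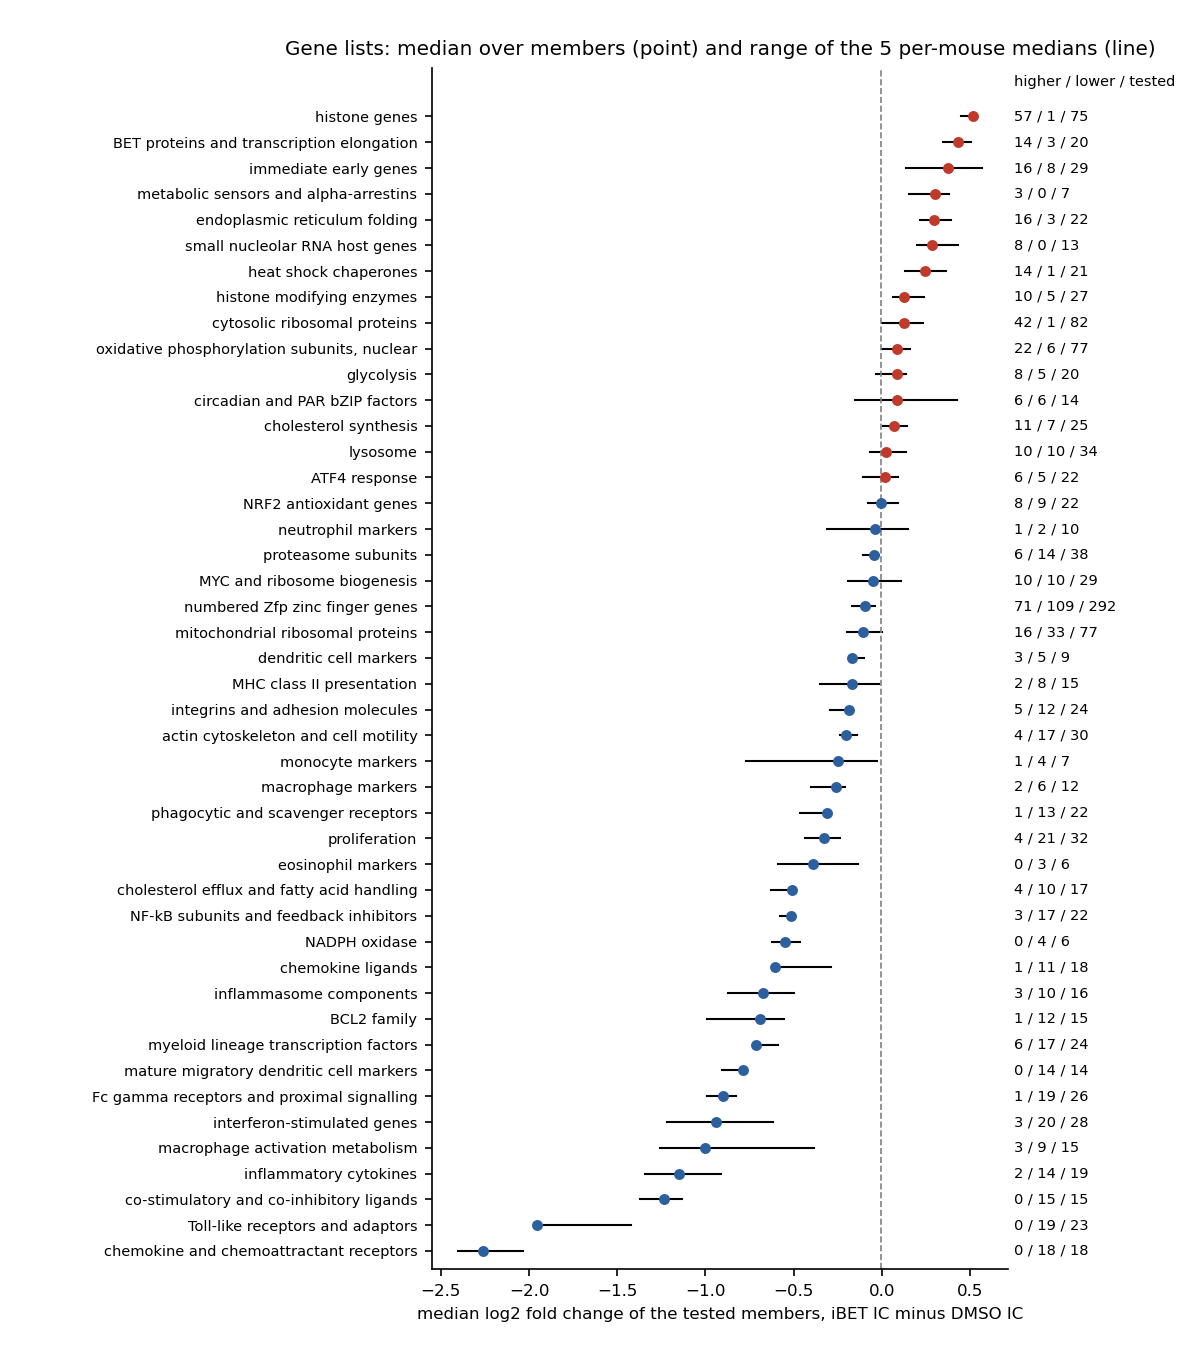
Median log2 fold change of the tested members of each gene list with 6 or more of them (points, x axis, iBET IC minus DMSO IC) and range of the 5 medians of single mice (lines). The dashed line is the median over all genes tested, the numbers at the right give members called higher, called lower and tested, and chemoattractant receptors stand at the lower end (-2.26) and histone genes at the upper end (0.52).

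Genes of adhesion, motility and uptake showed a few large falls beside many small changes. Of 24 integrin and adhesion genes 12 were called lower and 5 higher, of which Amica1, a junctional adhesion protein of leukocytes, fell from 38.5 ± 17.3 to 3.96 ± 1.67 CPM (log2 fold change -3.27, SE 0.11, edgeR adjusted p = 1.36e-14). Itgb2, the abundant β chain of the leukocyte integrins, was not called at 2076 ± 373 and 2231 ± 413 CPM (0.10). The 5 called higher were Itgav (0.50), F11r (0.50), Itgam (0.18), Itgax (0.15) and Cadm1 (at most 1.22 CPM, 3.04), of which Itgav and Cadm1 were called without the mouse in the fit. Of 30 actin and motility genes 17 were called lower and 4 higher. Evl, which elongates actin filaments, changed by -2.46 and Fmnl1, a formin, changed by -1.58 (SE 0.0836 and 0.0816), and Myh9 and Msn were not called (-0.05 and 0.03). The 4 called higher were Actg1 (0.47), Ezr (0.38), Cfl1 (0.29) and Actb (0.19), the last not called without the mouse in the fit. Of 22 phagocytic receptors 13 were called lower, and Clec7a, the β-glucan receptor Dectin-1, fell from 1226 ± 149 to 431 ± 43.7 CPM (log2 fold change -1.50, SE 0.10, edgeR adjusted p = 1.77e-10). Sirpa, the receptor for the signal CD47, was not called (0.07).

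Whether iBET acted differently under the 2 stimuli was tested as the interaction in the same fit. The comparisons share mice but no library. The difference was called for 102 of 12465 genes (0.818%), 50 above 0 (0.401%) and 52 below 0 (0.417%), and 1395 genes had an unadjusted p under 0.05. Without the mouse in the fit 5 genes were called. In 52 of the 102 genes both effects had the same sign and that with IC was the smaller, in 34 it was the larger, and in 16 the signs were opposite. Brd2 changed by 2.39 with Ova and 2.35 with IC, Hexim1 by 2.57 and 2.65, Spi1 by -2.58 and -2.77 and Ciita by -4.96 and -5.39, and none of these 4 differences was called (adjusted p 0.933, 0.835, 0.409 and 0.537). For Tnf, which had a log2 fold change of -0.02 with IC, the value in Ova-treated cells was 0.64 (edgeR adjusted p = 0.00489), and the difference of -0.66 was not called (edgeR adjusted p = 0.271).

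The smallest adjusted p was that of Arrdc4, an α-arrestin that restrains glucose uptake. With Ova it was at 171, 166, 150.2, 135 and 147 CPM with DMSO and at 307, 315, 234, 229.9 and 229 CPM with iBET. With IC it was at 102, 109.9, 90.6, 73.1 and 83.0 CPM with DMSO and at 99.7, 109, 78.2, 68.5 and 68.2 CPM with iBET. It rose with iBET in each mouse with Ova, and with IC its iBET values overlapped the DMSO values and it was not called (difference -0.88, SE 0.08, edgeR adjusted p = 3.36e-05). For Klf10, a TGF-β-induced factor, the value was -0.07 with Ova, not called, and -1.11 with IC (difference -1.04, SE 0.11, edgeR adjusted p = 8.73e-05). Rps6ka2, Lrp8, Acsl1 and Plk2 rose with Ova (0.69, 1.04, 0.48 and 0.58) and had negative values with IC (-0.20, -0.23, -0.35 and -0.40), of which that of Lrp8 was not called. Without the mouse in the fit those of Rps6ka2 and Plk2 were not called either. Ankrd63 fell with Ova (-1.01) and was not called with IC (-0.01), and Abhd15 rose by 2.62 and 3.59. For each of these 8 genes, chosen by this same test, the difference had the same sign in 5 of 5 mice, which adds no support. For Abhd15, Ankrd63, Lrp8 and Rps6ka2 it was also called without the mouse in the fit, and for the other 4 it was not.

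**Figure D5:**
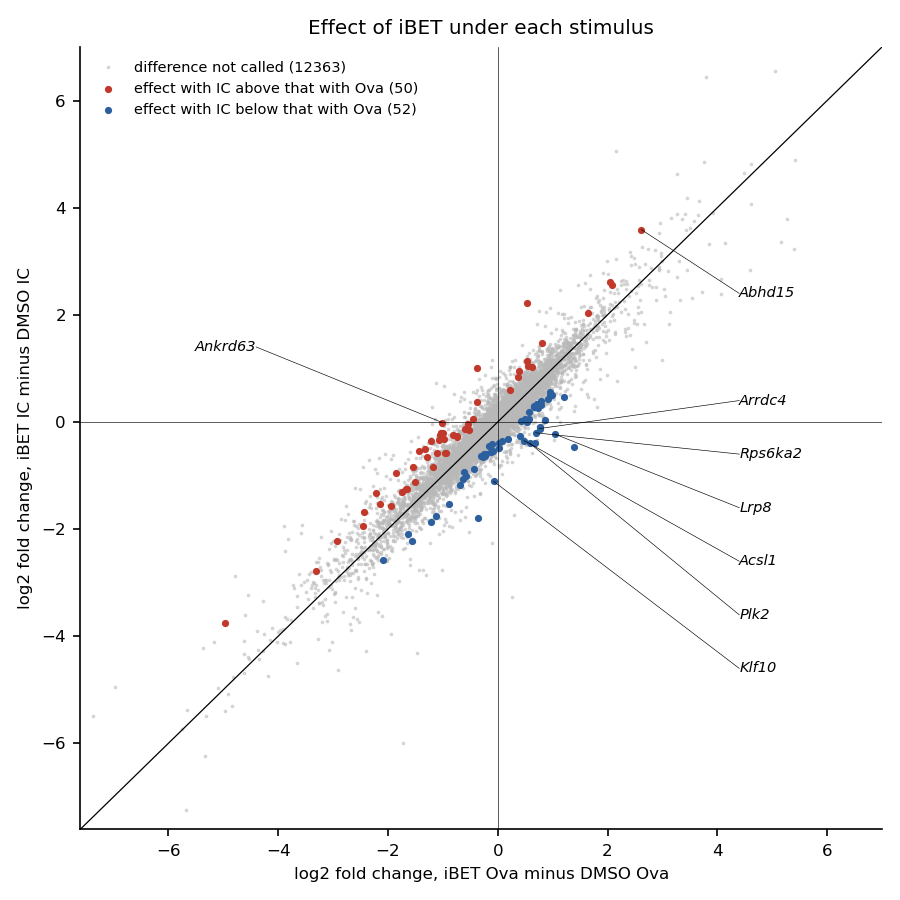
Log2 fold change of iBET against DMSO with IC (y axis) plotted against that with Ova (x axis) for 12465 genes. Red and blue points are the 50 and 52 genes whose effect with IC lay above or below that with Ova at an adjusted p under 0.05, the diagonal marks equal effects, and the 8 genes named have the smallest adjusted p.

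Changes of at least 2-fold were also counted by the level of a gene with DMSO IC. Genes were put into 5 bins of 2465 by their CPM per kilobase of exon with DMSO IC. The DMSO IC level that set the bins also enters the fold changes. A gene was tested if it had enough counts in as many libraries as 1 group holds. One low with DMSO IC, down to 0 CPM in the lowest bin, could thus pass through a group where it was high. The share of large changes in that bin may in part be set by this choice, and no conclusion is drawn from it. Falls of at least 2-fold made up 18.1% of the bin of lowest level and 7.1% of the highest, and rises of at least 2-fold 16.4% and 1.46%. The shares called at any size varied less, from 27.8% to 36.8% for higher and from 31.9% to 37.4% for lower calls. Called genes were somewhat longer than the rest in the GENCODE annotation (98.9% of tested genes matched). The median span from first to last exon was 24650 bases for genes called higher, 23524 for genes called lower and 18748 for genes not called. Total exon length differed the same way, with medians of 4630, 4390.5 and 3967.5 bases. Whether the reads that longer exons collect make a call more likely was not tested. Genes with a single exon were 4.79% of those called higher and 2.24% of those called lower, where they were 4.39% of all genes tested. These figures are descriptions, with no test.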

How the data were processed

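Levels of RNA were measured by sequencing of total RNA (SMARTer pico kit) in 20 BMDC libraries, 5 mice in each of 4 groups. The authors trimmed reads with Trim Galore, aligned them to mm10 with HISAT2 and deposited read counts per gene from featureCounts. The strand and multi-mapping settings are not given in the sources used here. The deposited normalized signal equals the count divided by 1 factor per library and was used in 1 alternative only.

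Counts were fitted with edgeR 4.0.16 (R 4.3.3; quasi-likelihood, TMM, filterByExpr, Benjamini-Hochberg) over all 20 libraries, with group and mouse as terms and 12 residual degrees of freedom. The labels give the mouse of each library. Deviations from the group means correlated between libraries of 1 mouse by 0.624 on average (30 pairs, lowest 0.26). Between different mice the average was -0.149 (120 pairs, highest 0.665). The mouse was kept as a block. Replicate pairs differed by more than sampling noise (chi-square per degree of freedom at least 13.2 in 40 pairs). Mice A and B stood apart from mice C, D and E. With DMSO IC this measure was 19.1 to 25.5 within these 2 sets and 51.5 to 74.9 between them. With iBET IC it was 13.2 to 28.9 within and 49.7 to 123 between. What sets them apart was not tested. Of 24421 genes listed, 6187 had no count and 12465 were tested. The fit was tested on simulated data in which 200 genes changed under both stimuli and 200 with IC alone, with rises and falls drawn alike. Most genes were called in the real data, so the simulation does not cover that setting. Alternatives used DESeq2 1.42.0, limma 3.58.1 and sva 3.50.0, other scaling, filters and thresholds, and fewer mice.

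Genes were named as the 12 largest falls and rises averaging 100 counts or more and moving 1 way in 5 of 5 mice, up to 3 called members per direction and 2 members not called per list, 14 genes always named, and the 8 smallest adjusted p of the difference. Other members were named after their values were seen, to complete counts or to describe a complex or family. Some genes under this rule are not reported here. Members and lists were chosen with earlier results of these data known. Windows of promoters were found for 78.6% of tested genes, under 80%, so that a check of promoters over called genes was void. Coordinates are of GRCm38 (GENCODE M21).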

Additional observations from a re-analysis of the deposited data

Results flagged for a closer look

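In 15 of 430 groups of 5 libraries, 3.49% of those looked at for 215 of the genes named, 1 library stood apart by Dixon's criterion, which chance alone meets in about 1 group in 20. These were Acaca in mouse A with DMSO IC (93.1 CPM, others 75.5 to 80.4), Aff1 in mouse E with DMSO IC (247 CPM, others 220.2 to 228) and Cadm1 in mouse E with iBET IC (1.22 CPM, others 0.518 to 0.720). Further ones were Chac1 in mouse D with DMSO IC (8.24 CPM, others 11.3 to 12.3), Fcgr4 in mouse A with iBET IC (0.740 CPM, others 0.334 to 0.417) and Fdps in mouse A with DMSO IC (31.9 CPM, others 21.5 to 22.4). Others were Fgr in mouse A with iBET IC (13.2 CPM, others 11.1 to 11.4), Herpud1 in mouse D with iBET IC (113 CPM, others 127 to 133) and Hspa1b in mouse E with DMSO IC (8.04 CPM, others 1.64 to 2.57). Further ones were Larp7 in mouse A with DMSO IC (12.2 CPM, others 15.0 to 16.1), Ncl in mouse A with iBET IC (253 CPM, others 309.8 to 332) and Neat1 in mouse B with DMSO IC (984 CPM, others 244 to 304). Others were Plcg2 in mouse C with DMSO IC (161 CPM, others 185 to 194), Ptpro in mouse D with DMSO IC (21.6 CPM, others 14.6 to 16.2) and Unc93b1 in mouse C with DMSO IC (458 CPM, others 553 to 579).

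The effect of iBET differed between IC and Ova, by the interaction in edgeR, with the smallest adjusted p for 8 genes. The differences, IC minus Ova on the log2 scale, were Arrdc4 (-0.88, SE 0.08), Klf10 (-1.04, SE 0.11), Ankrd63 (1.00, SE 0.11), Rps6ka2 (-0.89, SE 0.10). Those of the other 4 were Lrp8 (-1.26, SE 0.15), Acsl1 (-0.83, SE 0.10), Plk2 (-0.98, SE 0.12), Abhd15 (0.97, SE 0.12). Each had 1 sign in 5 of 5 mice, which the choice of genes by this test makes likely.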

How the results depend on the processing

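The number of genes called with IC stayed between 6265 and 8621 under every alternative except a log2 fold change of at least 1, which left 1927. Scaling by library size alone moved the median over all genes to -0.05 and the share of higher calls from 48% to 42.5%. The paired fit was the one reported, and with no replicate block 6990 genes were called with IC. Leaving out 1 mouse gave 7722 to 8177.

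The difference between IC and Ova depended more on the processing. With no replicate block 5 genes were called in place of 102, with DESeq2 185 with the block and 24 without it, with surrogate variables 47, with limma on the deposited normalized values 57, in mice A and B only 0 (fewer samples), in mice C, D and E only 65, at a log2 fold change of at least 1 it was 9 and at an adjusted p under 0.01 it was 18. Leaving out 1 mouse gave 14 to 61, 55 without A, 37 without B, 15 without C, 14 without D and 61 without E. The cause was not tested. Medians of 8 of 49 lists changed sign under an alternative, and each of these was within 0.0843 of 0. Genes of few counts were limited by depth.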

Other observations

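Over all genes tested 32.6% were called higher and 35.4% lower, and the shares of the lists below are to be read beside these. Of 77 nuclear genes of oxidative phosphorylation 22 (28.6%) were called higher and 6 (7.79%) lower, with a median of 0.09. Of 77 mitochondrial ribosomal protein genes 16 (20.8%) were called higher and 33 (42.9%) lower, with a median of -0.11. Of 38 proteasome subunit genes 6 (15.8%) were called higher and 14 (36.8%) lower (median -0.04). Of 34 lysosome genes 10 (29.4%) were called higher and 10 (29.4%) lower (median 0.03), 5 and 5 without the mouse in the fit. Numbered zinc finger genes had 71 of 292 (24.3%) called higher and 109 (37.3%) lower (median -0.09), the share lower being near that of all genes. Of 27 genes of histone modifying enzymes 10 (37%) were called higher and 5 (18.5%) lower (median 0.13). Circadian and PAR bZIP factor genes had 6 of 14 (42.9%) called in each direction, and 6 higher and 3 lower without the mouse in the fit. Of 13 host genes of small nucleolar RNAs 8 (61.5%) were called higher and 0 lower (median 0.28). Txnip, an α-arrestin that binds thioredoxin, was at 393, 468, 346, 359 and 383 CPM with DMSO IC and at 917, 1079, 679.8, 761 and 747 CPM with iBET IC (log2 fold change 1.09, SE 0.06, edgeR adjusted p = 1.83e-11).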
